A study of Mus musculus with 17 samples.

Results

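Resident macrophages of the mouse colon were followed through 10 genes that mark them. The set held Mrc1, Cd163 and Lyve1, which mark the macrophages of the muscle coat and of vessels, called muscularis-type here. It also held Csf1r, Cd68, Adgre1, C1qa, C1qb, C1qc and Cd14, the 7 general macrophage and myeloid markers. The genes were found by their exact symbols, and all 10 were among the 23719 entries of the count table. All 10 also had enough counts to be tested, as had 14146 genes in all. Macrophages are the most abundant phagocytes of the gut wall. Those under the epithelium are replaced from blood monocytes and clear microbes and dying cells. Those of the muscle layers lie along nerves and vessels, exchange signals with enteric neurons and include long-lived cells.

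The samples came from the colons of C57BL/6 mice, all male and 32 to 34 weeks old. The 8 GWI mice drank water with pyridostigmine bromide, which blocks acetylcholinesterase, for 7 days at 2 mg/kg, followed by 21 days of recovery. The 9 control mice drank plain water, and the colons of both groups were taken at day 30. The labels call the samples replicates of a group, and the first part of the sample names is not defined. Control libraries held between 16744096 and 20741212 counts with a median of 17761682, and GWI libraries between 16293537 and 18389686 with a median of 17428512. Control replicate 9 stood apart, since its 10 most abundant genes took 23.1% of its counts.

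Most of the resident macrophage genes had negative log2 fold changes in GWI colons, and Mrc1 alone passed the test. Levels are given in CPM, the count of a gene as a share of the library size after TMM scaling, and a log2 fold change is GWI against control. A gene was called when its adjusted p-value in edgeR's quasi-likelihood test, with adjustment over all tested genes, was under 0.05. Of the 10 genes, 1 was called lower, against 13.5% of all tested genes, and 0 were called higher, against 13.4%. With the first part of the sample name as a random block in limma-voom, 0 of the 10 genes were called. Of all tested genes, 0.664% were then called lower and 2.66% higher. In edgeR's test 26.8% of all tested genes were called across both directions, so the share among the 10 was not above the background. At an unadjusted p-value under 0.05 in edgeR, 4 were lower, beside 22.1% of all tested genes, and 0 higher, beside 19.3%. The DESeq2 Wald test called 2 lower, beside 17.3% of all tested genes, and 0 higher, beside 15.3%. With quality weights limma-voom called 7 lower, beside 29.5%, and 0 higher, beside 27.6%. The log2 fold change was negative for 9 of the 10 genes with a median of -0.35, beside 55.2% negative and a median of -0.06 over all tested genes. In bulk tissue, fewer macrophages and less of a transcript in each macrophage cannot be told apart.

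**Figure D1:**
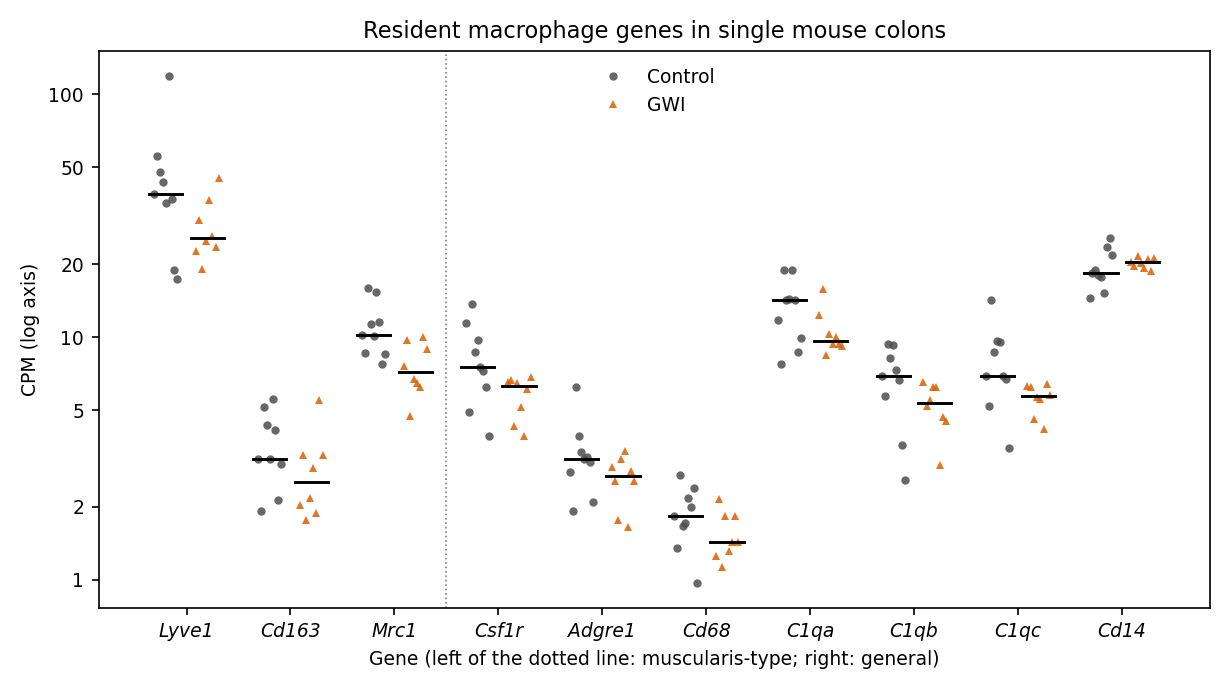
Level of each resident macrophage gene in CPM on a log axis, with 1 point for each of the 9 control and 8 GWI mice and a bar at the group median. Of the 10 genes, Mrc1 was called lower in GWI colons, and the GWI mice had their narrowest spread in Cd14.

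Mrc1, located on chromosome 2 from 14229392 to 14332057 (ENSMUSG00000026712.3), encodes the mannose receptor CD206, which takes up glycoproteins with mannose ends. Mrc1 levels in control colons ran from 7.79 CPM through a median of 10.2 to 15.9 CPM. In GWI colons they ran from 4.72 through 7.16 to 10 CPM. All 8 GWI mice lay under the control median and 5 of them under every control mouse, while 6 control mice lay above every GWI mouse. Mrc1 fell by 0.55 on the log2 scale (standard error 0.18, adjusted p = 0.0287 in edgeR's test), to 0.684 of the control level. With the first part of the sample name as a random block in limma-voom, it had -0.53 and an adjusted p of 0.205. With a score of muscle against epithelium as a covariate it had -0.21 (adjusted p = 0.467), and with a lymphatic score -0.27 (adjusted p = 0.215). The call also rested on few mice. Without Control replicate 3 the adjusted p was 0.0572, without Control replicate 6 it was 0.055, and without GWI replicate 3, 4 or 6 it was 0.0582, 0.0555 or 0.0584.

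Cd163, on chromosome 6 between 124304656 and 124330527 (ENSMUSG00000008845.9), encodes the scavenger receptor that takes up complexes of haemoglobin and haptoglobin. Control colons had 1.93 to 5.58 CPM of Cd163 with a median of 3.16. GWI colons had 1.77 to 5.53 CPM with a median of 2.54. Both ranges nearly coincided, and GWI replicate 7 was as high as the highest control mice. The log2 fold change of Cd163 was -0.35 with a standard error of 0.26 (adjusted p = 0.317), and 5 of 8 GWI mice lay under the control median. Without GWI replicate 7 it was -0.55 (adjusted p = 0.105).

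Lyve1, on chromosome 7 between 110850607 and 110863239 (ENSMUSG00000030787.4), encodes a receptor for hyaluronan on lymphatic endothelium and on macrophages beside vessels. Control levels of Lyve1 ran from 17.4 CPM through a median of 39 to 119 CPM. GWI levels ran from 19.1 through 25.5 to 45.4 CPM. Control replicate 6 held the highest value, Control replicates 8 and 9 the lowest, and 7 of 8 GWI mice lay under the control median. At -0.69 with a standard error of 0.30, the log2 fold change was the largest of the 10 genes in size with all mice. Without Control replicate 6 it was -0.37, smaller in size than those of Csf1r, Mrc1 and C1qc. With an adjusted p of 0.0961 in edgeR's test, Lyve1 was not called.

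Csf1r encodes the receptor for colony stimulating factor 1 and interleukin 34, on which most tissue macrophages depend. It lies on chromosome 18 between 61100598 and 61132149 (ENSMUSG00000024621.16). Its exons overlap those of Hmgxb3 on the opposite strand, which leaves its count uncertain where strand was not used. Control colons had 3.9 to 13.7 CPM of Csf1r with a median of 7.57. GWI colons had 3.9 to 6.84 CPM with a median of 6.31. All 8 GWI mice were under the control median, and 6 control mice were above every GWI mouse, while Control replicate 9 was among the lowest of all. The log2 fold change of Csf1r was -0.50 with a standard error of 0.22 (adjusted p = 0.0889).

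Adgre1 encodes F4/80, the adhesion receptor by which mouse macrophages are commonly stained, and lies on chromosome 17 between 57358691 and 57483527 (ENSMUSG00000004730.15). Its levels were 1.93 to 6.23 CPM in control colons with a median of 3.14. They were 1.66 to 3.41 CPM in GWI colons with a median of 2.69. Control replicate 3 was far above the other mice, Control replicate 4 also lay above every GWI mouse, and the remaining control mice overlapped with them. The log2 fold change of Adgre1 was -0.35 (standard error 0.22, adjusted p = 0.24), and -0.18 without Control replicate 3.

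Cd68 encodes macrosialin, a glycoprotein of lysosomes and late endosomes, and lies on chromosome 11 between 69664213 and 69666153 (ENSMUSG00000018774.13). It had the lowest count of the 10 genes, 14 to 52 counts per mouse, so counting error adds to its spread. Its levels were 0.976 to 2.7 CPM with a median of 1.83 in control colons. In GWI colons they were 1.13 to 2.15 CPM with a median of 1.43. Control mice lay on both sides of the GWI range, with Control replicate 9 lowest and Control replicate 3 highest. Cd68 was not called (log2 fold change -0.27, adjusted p = 0.304, standard error 0.20).

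C1qa, C1qb and C1qc encode the chains of C1q, the recognition part of the classical complement pathway, which tissue macrophages make in large amounts. They lie side by side on chromosome 4, C1qb from 136880129 to 136886187 (ENSMUSG00000036905.8), C1qc from 136889804 to 136893065 (ENSMUSG00000036896.5) and C1qa from 136895917 to 136898803 (ENSMUSG00000036887.5). C1qa had 7.73 to 19 CPM with a median of 14.2 in control colons, and 8.48 to 15.8 CPM with a median of 9.65 in GWI colons. C1qb had 2.58 to 9.35 CPM with a median of 6.95 in control colons, and 2.98 to 6.51 CPM with a median of 5.37 in GWI colons. C1qc had 3.48 to 14.2 CPM with a median of 6.95 in control colons, and 4.19 to 6.39 CPM with a median of 5.72 in GWI colons. For each chain the control mice were spread more widely than the GWI mice, and the lowest value of all 17 mice was that of a control mouse. All 8 GWI mice lay under the control median for C1qb and for C1qc, and 7 control mice lay above every GWI mouse for C1qc. The log2 fold changes were -0.32 for C1qa (standard error 0.18, adjusted p = 0.195), -0.34 for C1qb (0.23, 0.266) and -0.51 for C1qc (0.21, 0.0751). None of the chains was called by edgeR. C1qc alone of them was called lower by the DESeq2 Wald test (adjusted p = 0.0442) and by edgeR with upper-quartile factors (adjusted p = 0.0417). With quality weights limma-voom called all 3 chains lower, with adjusted p-values of 0.0358 for C1qa, 0.00449 for C1qb and 0.00143 for C1qc.

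Cd14 encodes the coreceptor that hands bacterial lipopolysaccharide to Toll-like receptor 4, and lies on chromosome 18 between 36725067 and 36726798 (ENSMUSG00000051439.7). It was the exception in direction. Control colons had 14.5 to 25.5 CPM with a median of 18.4. GWI colons had 18.7 to 21.6 CPM with a median of 20.4. All 8 GWI mice lay inside the control range, 0 of them under the control median, and their SD was 0.974 CPM beside 3.64 CPM in controls. Cd14 had a log2 fold change of 0.07 with a standard error of 0.10 (adjusted p = 0.619), and -0.02 with upper-quartile scaling.

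Levels of different genes were compared per kilobase of exon. In control colons Lyve1 was highest with a mean of 15.8 CPM per kilobase, followed by C1qa with 12.7 and Cd14 with 11.1. C1qb had 6.09 and C1qc 4.11 CPM per kilobase, so the chains of C1q, which are assembled in equal numbers, did not have equal transcript levels on this scale. Far lower were Mrc1 with 1.73, Cd68 with 1.49, Csf1r with 1.41, Adgre1 with 1.02 and Cd163 with 0.663 CPM per kilobase. In GWI colons the order at the top was Cd14 with 11.7, C1qa with 10.2 and Lyve1 with 9.79 CPM per kilobase. The spread between mice exceeded the steps between these top genes, so their order is not firm in either group. Cd163 was the lowest in both groups, with 0.523 CPM per kilobase in GWI colons.

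Taken by class, the median log2 fold change was -0.55 for the muscularis-type genes and -0.34 for the general genes, a difference of -0.21. Without Control replicate 6 this difference was -0.05. Within single mice, the mean log2 CPM of the muscularis-type genes exceeded that of the general genes by 0.21 to 1.57 in control colons, with a median of 0.81. In GWI colons it exceeded it by 0.25 to 1.02, with a median of 0.66. The groups overlapped almost fully in this difference, and Control replicate 6, the mouse with the highest Lyve1, had the largest one. The summed level of the 10 genes was 121 CPM in control colons (SD 38.4, n = 9) and 90.6 CPM in GWI colons (SD 11.6, n = 8).

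Correlations between the genes were computed across the 17 mice on log2 CPM after the group mean was subtracted. They describe libraries in which genes share depth and tissue make-up. Cd163 and Mrc1 moved most closely (Pearson 0.87, Spearman 0.89), as did Csf1r and C1qc (0.87 and 0.74). Adgre1 and C1qc had 0.84 and 0.75. Among the chains of C1q, C1qb and C1qc had 0.79 and C1qa and C1qc 0.72, while C1qa and C1qb had 0.56 (Pearson). The value of C1qb and C1qc was 0.63 without Control replicate 9. Lyve1 had values from 0.24 with Adgre1 to 0.60 with Mrc1, leaving aside Cd14. Without Control replicate 9 it had 0.08 with Adgre1, 0.11 with Csf1r and -0.02 with Cd68. Cd14 had negative values with all 9 others, from -0.09 with Cd68 to -0.62 with Lyve1, and the value with Cd68 was 0.09 without Control replicate 9.

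**Figure D2:**
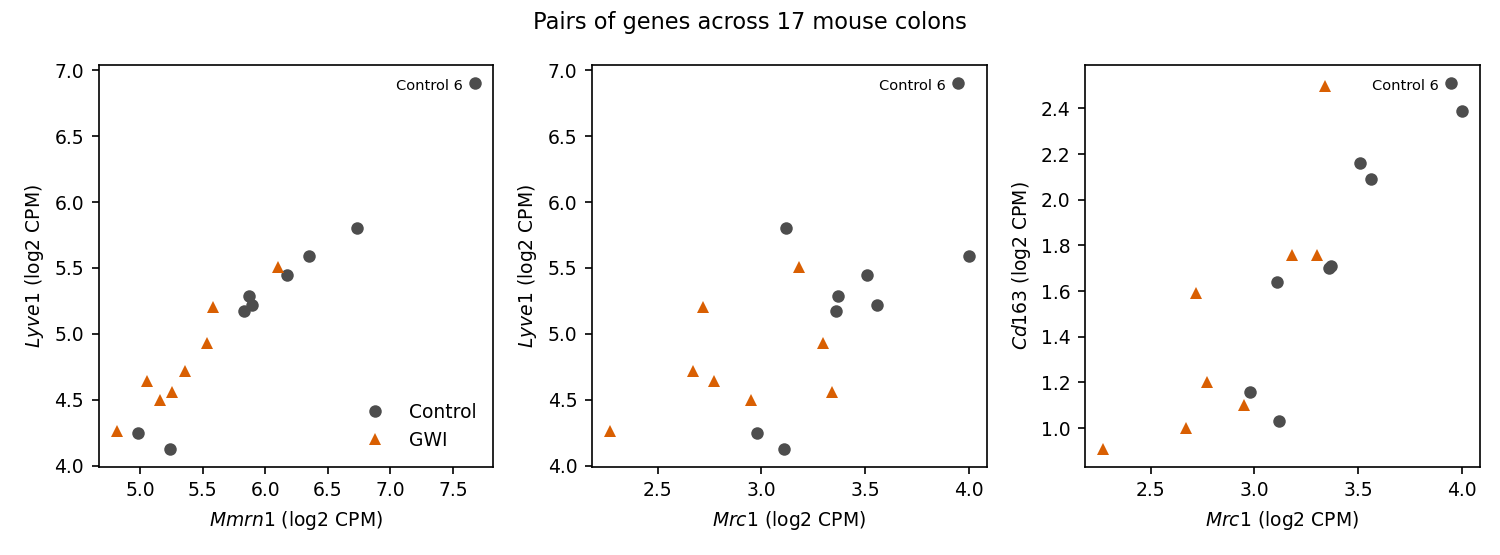
Log2 CPM of pairs of genes in 9 control mice (circles) and 8 GWI mice (triangles), with 1 point for each mouse. Lyve1 lies close to a line with Mmrn1, a lymphatic gene, and is scattered against Mrc1, while Cd163 and Mrc1 move together.

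Genes outside the set that were most like Lyve1 across the 17 mice were Mmrn1 (Pearson 0.98, Spearman 0.92), Reln (0.97, 0.91), Flt4 (0.96, 0.95), Cpxm2 (0.96, 0.97) and Cdc42ep3 (0.95, 0.94). Mmrn1, Reln and Flt4 stand in the list of lymphatic endothelium markers. Without Control replicate 6, the value of Lyve1 with Mmrn1 was 0.96. Against the mean level of the whole lymphatic list Lyve1 had 0.98, against smooth muscle 0.85, against long-lived tissue macrophages 0.57 and against the macrophage core list 0.28. The Lyve1 transcript of these colons therefore varied with lymphatic markers more closely than with macrophage markers, so its label as a macrophage gene is uncertain in this tissue. Genes most like Csf1r were Laptm5 (0.85, 0.74), Scara5 (0.84, 0.71), Cd34 (0.83, 0.71), Col15a1 (0.82, 0.78) and Wdr91 (0.82, 0.81). Laptm5 is a lysosomal protein of blood cells, while Cd34 and Col15a1 are genes of vessels and connective tissue. Csf1r had 0.83, Adgre1 0.84 and C1qc 0.83 with the macrophage core list. With the list of long-lived tissue macrophages C1qc had 0.86, Mrc1 0.85, C1qa 0.77, Cd163 0.76, Csf1r 0.75 and Cd68 0.71. General genes other than Cd14 thus followed that list as well. Cd14 had -0.41 with that list and -0.19 with the macrophage core list, so its label as a macrophage gene is also uncertain in this tissue. It had -0.79 with smooth muscle and 0.62 with the T and B cell list.

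The lymphatic endothelium list moved in the same direction as Lyve1. Of its 6 genes, 5 were tested and 3 were called lower, beside 13.5% of all tested genes, and 0 were called with the random block. They were Prox1 (-0.90, adjusted p = 0.0116), Mmrn1 (-0.90, adjusted p = 0.0359) and Flt4 (-1.19, adjusted p = 0.0367). Mmrn1 kept its call in 8 and Flt4 in 7 of the 17 runs that left out 1 mouse. In the run without Control replicate 6 Mmrn1 had -0.57 (adjusted p = 0.071) and Flt4 -0.81 (adjusted p = 0.0872). The median of the list was -0.90. Its summed level was 62.6 to 465 CPM in control colons and 58.2 to 155 CPM in GWI colons, with Mmrn1 most abundant at 61.5 CPM. Ccl21a, a defining marker, was at or near 0 in all mice. The part of lymphatic vessels in the Lyve1 result was not tested. With the lymphatic score as a covariate the log2 fold change of Lyve1 was 0.18 (adjusted p = 0.153). Lyve1 had a correlation of 0.98 with the lymphatic list, so this fit could leave little of its difference and cannot decide the question.

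Other genes that mark macrophages in general were measured beside the 10 genes. The macrophage core list held 24 further genes, of which 23 were tested, 10 were called lower and 1 higher, beside 13.5% and 13.4% of all tested genes. EdgeR's count of 10 lower became 0 in limma-voom when mice sharing the first part of the sample name were treated as related, and 4 with the muscle score as a covariate. In the main test the median log2 fold change of the list was -0.64, and 20 values were negative. Tyrobp, the signalling adaptor of activating receptors on myeloid cells, had 2.85 to 4.1 CPM in control colons and 1.37 to 2.6 CPM in GWI colons. All 8 GWI mice were under every control mouse, and Tyrobp fell by 0.77 on the log2 scale (standard error 0.15, adjusted p = 0.00225). Cd84, an adhesion receptor of leukocytes, fell by 1.17 (0.20, 0.0012), with 6 of 8 GWI mice under every control mouse. Trem2, a lipid-sensing receptor that signals through Tyrobp, fell by 1.44 (0.31, 0.00422) from few counts, 7 to 30 in control mice and 3 to 11 in GWI mice. The other genes called lower were Mpeg1, Cybb, Aif1, Spi1, Lyz2, Fcgr3 and C3ar1, with log2 fold changes from -0.64 for Lyz2 to -0.97 for Spi1, which encodes the myeloid transcription factor PU.1.

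Mertk went the other way. It encodes a receptor by which macrophages take up dying cells, and it rose by 0.56 on the log2 scale (standard error 0.13, adjusted p = 0.00548), with 6 of 8 GWI mice above every control mouse. Cathepsin S (Ctss), the most abundant gene of the core list with a mean of 230 CPM, had a log2 fold change of 0.31 (adjusted p = 0.136). Lgmn, a lysosomal protease, had 0.26 (adjusted p = 0.194) and Axl, a relative of Mertk, -0.53 (adjusted p = 0.115). Because Ctss and other abundant genes dominate it, the summed level of the core list was 534 CPM in control colons (SD 51.1) and 558 CPM in GWI colons (SD 48.6), while its median gene was lower.

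**Figure D3:**
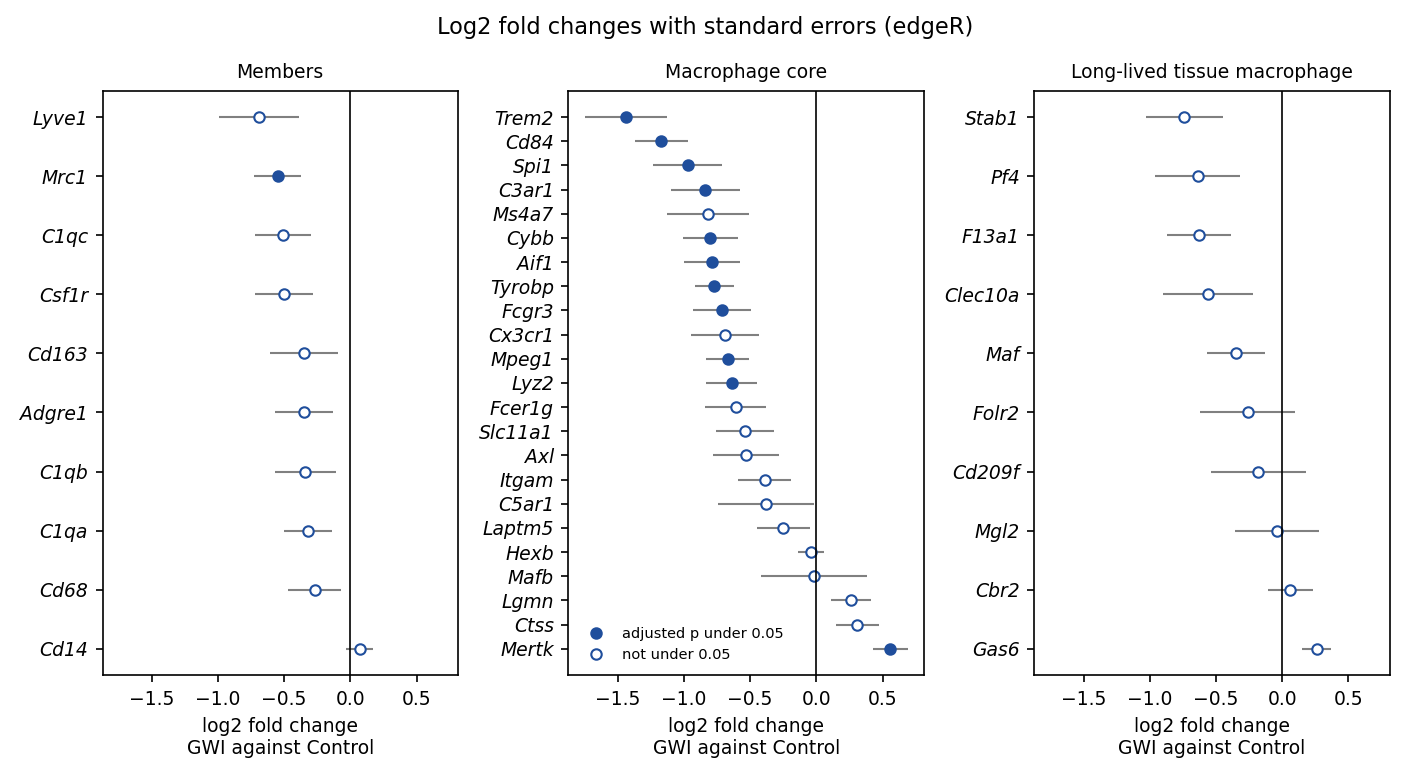
Log2 fold change of GWI against control colons with its standard error for the 10 genes, the macrophage core list and the list of long-lived tissue macrophages. Filled points had an adjusted p-value under 0.05 in edgeR's test, which 1 of the 10 genes, 11 core genes and 0 long-lived genes did.

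Genes of long-lived tissue macrophages lay nearer to the 10 genes. Of 13 listed, 10 were tested, and edgeR called 0 in either direction, with a median log2 fold change of -0.31. At an unadjusted p-value under 0.05, 2 were lower and 1 was higher, beside 22.1% and 19.3% of all tested genes. The DESeq2 Wald test called 2 lower, beside 17.3%, and limma-voom with quality weights 3, beside 29.5%, so these counts were near the background. The most abundant gene was Gas6, the ligand of Mertk and Axl, with a log2 fold change of 0.26 (adjusted p = 0.0991). Maf, a transcription factor of tissue macrophages, had -0.35 (adjusted p = 0.239) and Stab1, a scavenger receptor, -0.74 (adjusted p = 0.0669). Without Control replicate 6 they had -0.20 and -0.48, and Stab1 was called in 2 of the 17 runs that left out 1 mouse. Exons of Gas6, Maf and Stab1 overlap genes on the opposite strand, so their counts share the limit of Csf1r.

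Ligands of Csf1r were measured beside it. Csf1 had a log2 fold change of -0.23 (adjusted p = 0.421), and -0.46 without GWI replicate 8, and it was called in 1 of the 17 runs that left out 1 mouse. Il34, whose exons overlap genes on the opposite strand, had -0.43 (adjusted p = 0.253), and -0.14 without Control replicate 1. Bmp2, which muscularis macrophages release onto enteric neurons, had -0.19 (adjusted p = 0.674), and 0.28 without Control replicate 1. EdgeR and the DESeq2 Wald test called 0 of these 3 genes, 0 passed at an unadjusted p-value under 0.05 in edgeR, and limma-voom with quality weights called 2 lower, beside 29.5% of all tested genes. The values of these 3 genes thus shifted with single mice.

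Monocytes, the source of short-lived gut macrophages, were followed by 6 genes, of which 2 were tested. Ccr2, the chemokine receptor by which monocytes leave the blood stream, had 1.48 to 4.52 CPM in control colons and 1.03 to 1.7 CPM in GWI colons. It fell by 1.11 on the log2 scale (standard error 0.20, adjusted p = 0.00152), and 7 of 8 GWI mice were under every control mouse. With the random block 0 genes of the list were called. Plac8 made up nearly all of the summed level of the list, which was 320 to 1150 CPM in control colons and 371 to 657 CPM in GWI colons. Plac8 had a log2 fold change of 0.09 (adjusted p = 0.758), and 0.33 without Control replicate 9. Ly6c2 and Chil3 were too low to be tested, and Chil3 had 0 counts in all GWI mice.

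Some partners of Cd14 rose, while Cd14 itself did not pass the test. Of 13 listed genes of lipopolysaccharide and Toll-like receptor signalling, 12 were tested, 4 were called higher, beside 13.4% of all tested genes, and 0 lower, with a median log2 fold change of 0.18. With the random block 2 were called higher, beside 2.66% of all tested genes. EdgeR gave 5 higher and 1 lower at an unadjusted p-value under 0.05, beside 19.3% and 22.1%. The DESeq2 Wald test called 4 higher and 1 lower, beside 15.3% and 17.3%. With quality weights limma-voom called 7 higher and 3 lower, beside 27.6% and 29.5%. Irak4, a kinase at the start of the pathway, had 24 to 33.5 CPM in control colons and 34.4 to 44.3 CPM in GWI colons. The groups did not overlap, and Irak4 rose by 0.55 on the log2 scale (standard error 0.08, adjusted p = 0.000448). Its exons overlap those of Twf1 on the opposite strand. The others called higher were Tlr1 (0.64, adjusted p = 0.00238), Traf6 (0.29, adjusted p = 0.0058) and Ticam1 (0.54, adjusted p = 0.0104). The partners that bind lipopolysaccharide with Cd14 were not among them, with log2 fold changes of -0.06 for Tlr4 (0.19 without Control replicate 9), -0.60 for Ly96 (adjusted p = 0.0674) and -0.54 for Lbp (adjusted p = 0.192). Ly96 had -0.34 without Control replicate 9 and was called in 1 of the 17 runs that left out 1 mouse, and Lbp had -0.26 without Control replicate 6. These signalling genes are active in epithelium as well. In the main test 5 colon epithelium genes were also called higher, and the part of epithelium in these values was not tested.

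Complement genes downstream of C1q were split. Of 13 listed, 10 were tested, 3 were called lower and 1 higher, beside 13.5% and 13.4% of all tested genes, and 0 were called with the random block. The median log2 fold change was -0.43. C1s1 and C1ra encode the proteases that bind C1q, and both were lower, with -0.65 for C1s1 (adjusted p = 0.0172) and -0.61 for C1ra (adjusted p = 0.046), whose call held in 4 of the 17 runs that left out 1 mouse. Cfb, an activator of the alternative pathway, rose by 0.63 (standard error 0.16, adjusted p = 0.00974). C3 was the most abundant with a mean of 37.7 CPM, and it had a log2 fold change of -0.49 (adjusted p = 0.503), which was 0.50 without Control replicate 1. Exons of C1s1 and Cfb overlap other annotated genes, so their counts are less certain.

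Genes of macrophage activation were called about as often as genes in general. In the inflammatory list 7 of 12 genes were tested and 1 was called in each direction, beside 13.5% lower and 13.4% higher of all tested genes, and 0 were called with the random block. Cd40, a receptor of antigen-presenting cells, rose by 2.02 on the log2 scale (standard error 0.32, adjusted p = 0.000702), with 7 of 8 GWI mice above every control mouse. Its counts were few, 12 to 23 in control and 13 to 111 in GWI mice, and they were not checked against the reads. Cd86, a costimulatory ligand of the same cells, fell by 1.09 (0.26, 0.00775). The list did not move one way, and its median was -0.41. Nos2, which makes nitric oxide, had -0.96 with a standard error of 0.69 (adjusted p = 0.304), and 0.19 without Control replicate 1, which had its highest level, 14.4 CPM. Il6 was the most abundant gene of the list with a mean of 190 CPM and had 0.23 (adjusted p = 0.345), and 0.10 without GWI replicate 8. In control colons Il6 had a mean of 175 CPM, beside 0.31 CPM for Il1b and 0.254 CPM for Tnf. The Il6 counts were not checked against the reads, so its level is uncertain. In the alternative activation list 3 of 9 genes were tested, with a median of -0.32, and Retnla, the most abundant, had -0.32 (adjusted p = 0.548), -0.17 without Control replicate 3 and -0.58 without GWI replicate 7. EdgeR called 0 of these 3 genes, also at an unadjusted p-value under 0.05, and the DESeq2 Wald test and limma-voom called 0. Mmp9, a matrix protease of myeloid cells, had 0.08 (adjusted p = 0.881).

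Haem and iron handling, in which Cd163 takes part, gave 0 calls among 7 tested genes in edgeR and in the DESeq2 Wald test, with a median log2 fold change of -0.11. At an unadjusted p-value under 0.05 edgeR had 1 higher and 1 lower, beside 19.3% and 22.1% of all tested genes. With quality weights limma-voom called 4 lower, beside 29.5%. Fth1, the heavy chain of ferritin, was most abundant with a mean of 2720 CPM and had a log2 fold change of 0.05 (adjusted p = 0.831), and -0.03 without GWI replicate 8. Slc40a1, the iron exporter, had 0.17 (adjusted p = 0.634), and 0 without GWI replicate 8.

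Markers of other cell types moved as well, and their part in the results of the macrophage genes was not tested by a separation of cells. Smooth muscle had 7 of 10 genes called lower, beside 13.5% of all tested genes, and 0 with the random block. Its median was -0.91, and its summed level was 3690 to 23900 CPM in control colons and 3660 to 11800 CPM in GWI colons, with Myh11 most abundant. Without Control replicate 6, Acta2 (adjusted p = 0.104 in edgeR's test), Myh11 (0.0896), Lmod1 (0.0923), Smtn (0.101) and Synpo2 (0.058) were not called. Tagln and Mylk kept their calls in all 17 runs that left out 1 mouse. Colon epithelium had 5 of 11 genes called higher, beside 13.4% of all tested genes, and 1 with the random block. Its median was 0.38, with summed levels of 18700 to 40100 CPM in control colons and 20000 to 37300 CPM in GWI colons, Car1 being most abundant. Without GWI replicate 6, Epcam (adjusted p = 0.0967 in edgeR's test) and Cdh17 (0.0618) were not called. Epcam kept its call in 4 and Cdh17 in 14 of the 17 runs that left out 1 mouse. Cdh1, Vil1 and Cdx2 kept theirs in all 17 runs. With the score of muscle against epithelium as a covariate, the log2 fold changes of Lyve1 (0.47), Cd163 (0.04), Adgre1 (0.01), C1qa (0.03) and C1qb (0.32) became positive and that of Cd14 (-0.14) negative. Sign and size of most differences in the 10 genes thus changed with the muscle score in the model.

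Blood endothelium had 3 of 8 genes called lower, beside 13.5% of all tested genes. They were Emcn, Erg and Kdr, and the list had a median of -0.44 and summed levels of 51.2 to 198 CPM in control and 67.9 to 148 CPM in GWI colons, with Pecam1 most abundant. Fibroblast genes had 2 of 6 called lower, Dcn and Dpt, beside the same 13.5%, a median of -0.43 and summed levels of 251 to 756 CPM and 235 to 589 CPM. Dpt was the most abundant of them. Enteric glia and neuron genes, 9 tested, had a median of -0.63 and summed levels of 87.9 to 390 CPM and 117 to 274 CPM, with Uchl1 most abundant. With the random block 0 genes of these lists were called, and Kdr kept its call in 13 of the 17 runs that left out 1 mouse. Like the muscularis-type genes, these lists of cells in the gut wall had negative medians. So had the general genes (-0.34), the macrophage core list (-0.64) and the dendritic cell list (-0.46), so the likeness is not particular to the muscularis-type genes.

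Markers of other leukocytes were mostly low. Dendritic cell genes had 4 of 9 tested, with Irf8 called higher (0.38, adjusted p = 0.04) and Itgax, which macrophages share, called lower (-0.65, adjusted p = 0.0386), beside 13.4% higher and 13.5% lower of all tested genes. Of the 17 runs that left out 1 mouse, 4 kept the call of Irf8 and 7 that of Itgax, and with the random block 0 were called. Their median was -0.46, and Irf8 made most of a summed level of 63.9 to 120 CPM in control colons and 73.1 to 119 CPM in GWI colons. T and B cell genes had 6 of 8 tested, a median of -0.13 and summed levels of 4.87 to 13.3 CPM and 2.21 to 14.9 CPM, with Cd8a most abundant. Neutrophil genes had 1 of 6 tested, Ly6g with -1.17 (adjusted p = 0.241) and 0.01 without Control replicate 1, and summed levels of 0.576 to 13 CPM and 0.698 to 4.85 CPM. For both of these lists edgeR, also at an unadjusted p-value under 0.05, the DESeq2 Wald test and limma-voom called 0 genes. Of the mast cell genes 0 of 6 passed the filter, with at most 1.26 CPM in sum and Mcpt1 most abundant.

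Neighbouring tissues were checked in the same way. Adipocyte genes had 5 tested and 0 called in edgeR, the DESeq2 Wald test and limma-voom, with 1 higher at an unadjusted p-value under 0.05 in edgeR. Their median was 1.10, and summed levels were 16.8 to 233 CPM in control and 50.9 to 669 CPM in GWI colons, with Fabp4 most abundant. The 669 CPM was that of GWI replicate 7. Without this mouse the log2 fold changes were 1.08 for Plin1, 0.67 for Cfd, 0.58 for Adipoq, 0.56 for Lep and -0.24 for Fabp4. Mesothelium genes had 3 tested, 0 called by any of these tools or unadjusted in edgeR, a median of -0.07 and summed levels of 3.27 to 23.3 CPM and 2.98 to 18.8 CPM, with Upk3b most abundant. Small intestine genes had 3 of 7 tested, with Alpi called higher, in 7 of the 17 runs that left out 1 mouse, and Fabp6 lower, beside 13.4% higher and 13.5% lower of all tested genes. With the random block 0 were called. The list had a median of -0.69, which was the value of Sis, its most abundant gene. Without Control replicate 7 Sis had -0.17. Summed levels of the list were 47.8 to 660 CPM in control colons and 67 to 112 CPM in GWI colons. Fabp6 reached 119 CPM in Control replicate 6 and 314 CPM in Control replicate 7, so these colons differed from the rest in a gene of the ileum. Pancreas genes had 0 of 6 tested and at most 0.312 CPM in sum, with Pnlip most abundant and Cpa1 at 0 in all mice.

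Promoters were available from RefSeq on the build GRCm38.p6 for 5 of the 10 genes. Lyve1, Csf1r, Adgre1, C1qa and Cd14 had none. The first 250 bases of each RefSeq entry, which end at the RefSeq gene start, were searched on both strands for GAGGAA, a core of sites for PU.1 and related factors, which reads TTCCTC on the other strand. By the GENCODE positions the windows of Mrc1 and C1qc reach past the gene start, that of C1qc for most of its length. The motif occurred 3 times in the window of Mrc1, 1 time each in those of Cd68, C1qb and C1qc, and 0 times in that of Cd163, and 23.3% of all 32851 promoters held it. The promoters of Mrc1 and Cd163 are shown because these genes moved together across mice and differ in these letters, and that of C1qb because it stands for the cluster on chromosome 4. Each is written 5′ to 3′ in the direction of its gene, and capitals mark GAGGAA or TTCCTC. Mrc1 is chr2:14229164-14229391 on the plus strand, shortened to the 228 bases before its GENCODE start, Cd163 is chr6:124304401-124304650 on the plus strand, and C1qb is chr4:136886201-136886450 on the minus strand. A match describes letters and not a bound site.
Mrc1: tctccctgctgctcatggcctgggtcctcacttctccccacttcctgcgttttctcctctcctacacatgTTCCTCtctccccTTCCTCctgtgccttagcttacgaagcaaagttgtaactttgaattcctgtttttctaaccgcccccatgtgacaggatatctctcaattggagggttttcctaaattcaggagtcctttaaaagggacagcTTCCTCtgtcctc
Cd163: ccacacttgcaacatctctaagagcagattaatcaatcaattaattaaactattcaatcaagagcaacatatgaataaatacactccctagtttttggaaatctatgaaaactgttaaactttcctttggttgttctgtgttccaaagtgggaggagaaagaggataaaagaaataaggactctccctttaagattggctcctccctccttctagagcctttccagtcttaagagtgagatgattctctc
C1qb: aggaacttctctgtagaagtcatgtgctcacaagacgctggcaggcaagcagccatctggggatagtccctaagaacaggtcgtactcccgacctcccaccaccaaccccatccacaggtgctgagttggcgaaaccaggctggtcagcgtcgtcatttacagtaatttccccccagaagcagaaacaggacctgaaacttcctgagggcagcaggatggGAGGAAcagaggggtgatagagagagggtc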

How the data were processed

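RNA of 9 control and 8 GWI colons was measured by sequencing. The authors deposited raw counts per gene symbol without normalization, 1 column for each mouse, and 0 columns lacked a sample. The submitters' processing notes name Trimmomatic 0.36 and STAR 2.5.2b. The annotation release and the strand setting of the counting were not given in the sources used here. The table had 23719 entries, and 14146 genes passed filterByExpr. Library sizes were scaled by TMM, and the groups were compared with edgeR 4.0.16 (glmQLFit with robust estimation, glmQLFTest) in R 4.3.3. Benjamini-Hochberg adjustment ran over all tested genes, and a gene was called at an adjusted p-value under 0.05. Log2 CPM used a prior count of 2. Positions and exon lengths came from GENCODE M21 on GRCm38, and the chain of steps was tested on simulated data.

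All 10 genes of the set are named. From each companion list up to 4 called genes with the smallest p-values, up to 3 abundant genes among the rest and the most abundant gene are named, with the ligands of Csf1r and the macrophage markers that were measured outside sequencing. For likeness, the 5 tested genes with the highest Pearson correlation with Lyve1 and with Csf1r are named. Other genes were chosen after their values were seen. The members and lists were chosen with earlier results of these data known.

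Alternatives were DESeq2's size factors, upper-quartile factors and library size alone, the DESeq2 1.42.0 Wald test, limma-voom (limma 3.58.1) with sample quality weights, no robust estimation, no filter, a minimum of 10 counts in every mouse, replicate numbers as a block, the first part of the sample name as a random block, and scores of muscle against epithelium or of lymphatic endothelium as covariates. Calls at an unadjusted p-value under 0.05 with an absolute log2 fold change over 1 were also counted. Each mouse was left out in turn. A run without Control replicates 6 and 9 was chosen after seeing the data.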

Additional observations from a re-analysis of the deposited data

Results flagged for a closer look

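Mice were singled out when the gap to the next value was a large share of the range of the group. By chance this rule singles out about 1 in 20 groups, and not every such mouse is named. Lyve1 was 119 CPM in Control replicate 6, far above the other control mice. The summed level of the lymphatic endothelium list, 465 CPM, was also far above the others in that mouse. Cd163 was 5.53 CPM in GWI replicate 7, far above the other GWI mice. Adgre1 was 6.23 CPM in Control replicate 3, far above the other control mice. In Control replicate 9 the summed level of the monocyte list was 1150 CPM, nearly all of it from Plac8 with 1140 CPM. The inflammatory list of the same mouse summed to 306 CPM, most of it from Il6 with 279 CPM, whose counts were not checked against the reads. Summed levels far above the rest of the group were also found for other lists. Control replicate 1 had 13 CPM for the neutrophil list and 111 CPM for Csf1, Il34 and Bmp2. Control replicate 7 had 660 CPM for the small intestine list, and GWI replicate 7 had 669 CPM for the adipocyte list.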

How the results depend on the processing

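The number of the 10 genes called higher was 0 under every alternative run, and it was 0 at an unadjusted p-value under 0.05 except for 1 with limma-voom and 1 with the muscle score. The number called lower, 1 in the main test, was also 1 with DESeq2's size factors, library size alone, no robust estimation, no filter and at least 10 counts in every mouse. It was 3 with upper-quartile factors, 2 with the DESeq2 Wald test and 7 with limma-voom with quality weights. It was 0 with the first part of the sample name as a random block (Mrc1 -0.53, adjusted p = 0.205, consensus correlation 0.621). It was also 0 with the score of muscle against epithelium and with the lymphatic score. The cause was not tested. At an unadjusted p-value under 0.05 with an absolute log2 fold change over 1, the number called lower was 0 as well. That cut-off fixed this outcome, since the largest log2 fold change of the 10 genes in size was -0.69 (Lyve1). In the replicate block, the number called lower was 0 and Mrc1 had -0.58 (adjusted p = 0.0876), while the numbers do not pair mice, since the correlation of paired mice ran from -0.51 to 0.11. Over the alternatives with all mice, the adjusted p of Mrc1 ran from 0.00259 with limma-voom to 0.467 with the muscle score.

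Over the 17 runs that left out 1 mouse, the number called lower ran from 0 to 4. It was 0 without Control replicate 3, without Control replicate 6 and without GWI replicate 3, 4 or 6, 2 without Control replicate 8 (Lyve1 also called) and 4 without Control replicate 9 (Lyve1, Csf1r and C1qc also called). Without Control replicates 6 and 9, chosen after seeing the data, it was 3, Mrc1, Csf1r and C1qc. The cause was not tested.

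Directions that turned were those of Lyve1 (0.47), Cd163 (0.04), Adgre1 (0.01), C1qa (0.03), C1qb (0.32) and Cd14 (-0.14) with the muscle score, of Lyve1 (0.18) and Cd14 (-0.06) with the lymphatic score, and of Cd14 (-0.02) with upper-quartile factors. The difference between the classes, -0.21 in the main test, was 0.19 with the lymphatic score and 0.07 with the muscle score. Over the runs that left out 1 mouse it ran from -0.30 without GWI replicate 7 to -0.05 without Control replicate 6. The cause was not tested.

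Over all tested genes, the main test called 1889 higher and 1903 lower, so 49.8% of the calls were higher. With upper-quartile factors these were 1214 and 2992, or 28.9% higher, and with limma-voom with quality weights 3911 and 4180. With the random block they were 376 and 94, or 80% higher, and in the replicate block 1404 and 814, or 63.3% higher. Depth limits genes with few counts per mouse, among them Cd68 and Trem2.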

Other observations

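Ifng encodes interferon gamma, a cytokine that T cells and natural killer cells make and that activates macrophages. Its count was 323 to 844 in Control replicates 1 to 8, 9678 in Control replicate 9 and 2377 to 9867 in GWI mice. In CPM these were 16.8 to 41.4, 675 and 141 to 559. The T cell gene Cd3e, by contrast, had 0.379 to 1.88 CPM in control colons and 0.315 to 2.2 CPM in GWI colons. Of the 9 Ifng counts over 1000, 8 were written with the digits 5 to 9 alone. Control replicate 9 lay with the GWI mice and far from its own group. How these counts arose was not tested, and the values of Ifng are uncertain for that reason. The counts of the 10 macrophage genes had no such step, and Control replicate 9 was lowest of the control mice for Lyve1, Csf1r, Cd68, C1qb and C1qc.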
